A study of Glycine max with 12 samples.

Results

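MATE and ALMT proteins are membrane transporters, and 95 probe sets for them, of 91 genes, were followed among 66195 main probe sets, of 33790 named genes, on a soybean (Glycine max) expression array. The members were chosen from the gene title in the deposited annotation, which had to name a MATE efflux protein, a TRANSPARENT TESTA 12 (TT12) protein or an aluminum-activated malate transporter (ALMT). They fall into 28 ALMT probe sets of 27 genes, 29 TT12-like MATE probe sets of 26 genes and 38 other MATE probe sets of 38 genes. The FRD3-like MATE gene LOC100792203 was left out by the choice of members. Its log2 intensity was 1.47 to 4.36 in the control arrays and 7.08 to 8.80 in the Al arrays.

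MATE (multidrug and toxic compound extrusion) proteins exchange organic compounds for protons or sodium, and plant members carry citrate, flavonoids, alkaloids and hormones. TT12 of Arabidopsis loads flavonoid precursors of seed coat pigment into the vacuole, and EDS5 of Arabidopsis releases salicylic acid from the chloroplast. ALMT proteins are anion channels. Some release malate from root tips, where malate binds Al ions outside the cell, while others act in the vacuole membrane or in guard cells.

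Root RNA was measured on 12 arrays, 1 for each combination of variety, treatment and time. GF (Guangfengmaliaodu) is labelled as the Al-sensitive variety and KF as the Al-tolerant one. Seedlings of both germinated in sand for 3 days and then stood in 0.5 mM CaCl2 at pH 4.3, either without Al or with 25 µM AlCl3, for 6, 12 or 24 h, so the control roots were also in acid, low-salt solution. No condition was repeated, and each sensitivity class is 1 variety, so p-values here measure the spread of an effect over times and varieties.

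The values are the authors' normalized intensities, given below as log2. An array holds 23 antigenomic background probe sets, which match no soybean transcript, and their median was 1.59 to 2.22 log2 over the 12 arrays, highest in the GF 24 h control array. The 95th percentile of the same probe sets was 4.87 to 6.18. That GF 24 h control array also had the fewest main probe sets above its 95th percentile, 3.75% against 6.94% to 12.4% in the other 11. As a check of the tissue, probe sets above the 95th percentile in at least 6 arrays were counted, beside 10.1% of all main probe sets. They were 4 of 7 of the root hair list and 8 of 64 of the Casparian strip (endodermis) list. They were 3 of 54 of the shoot and photosynthesis list, 5 of 33 of the nodule list and 0 of 21 of the seed and cotyledon list. All 21 of the seed and cotyledon list were below it on every array. Only the root hair list, of 7 probe sets, stood far above the share of all main probe sets. The endodermis list was near that share and had a smaller share than the nodule list. The summed intensity of the root hair list was 260.0 to 300.2 in control and 138.8 to 349.6 in Al arrays, that of the nodule list 1150.8 to 1672.7 and 466.9 to 1494.6, and that of the seed list 50.1 to 54.6 and 48.9 to 53.4. The endodermis list summed to 963.5 to 1268.9 in control and 666.4 to 1617.1 in Al arrays, and the shoot list to 466.3 to 593.7 and 343.8 to 570.3. The part of other cell types in the results below was not tested, and in whole roots fewer cells of a type and less RNA per cell cannot be told apart.

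Most of the family gave little signal in these roots. Only 3 of 95 member probe sets (3.16%) were above the background 95th percentile in at least 6 arrays, against 6708 of 66195 main probe sets (10.1%). A single member was above it on all 12 arrays, and 5 were above it on at least 1. At the other end, 49 of 95 members never exceeded the background median, while 13 were above it on every array. These counts were not taken over all main probe sets. The median main probe set, at 1.67 to 1.70 over the arrays, was also below the background median on most of them. The median member was at 1.27 to 1.41. For 68 of 95 members (71.6%) the mean over all arrays passed the filter on low values, compared with 75.0% of main probe sets. The signal of 22 members moved over the 12 arrays by at least 1 log2 unit and that of 11 by at least 2, again without a count over main probe sets. Intensities of different probe sets also depend on their probes, so each was set against background and no order of transcript abundance was read from them.

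**Figure D1:**
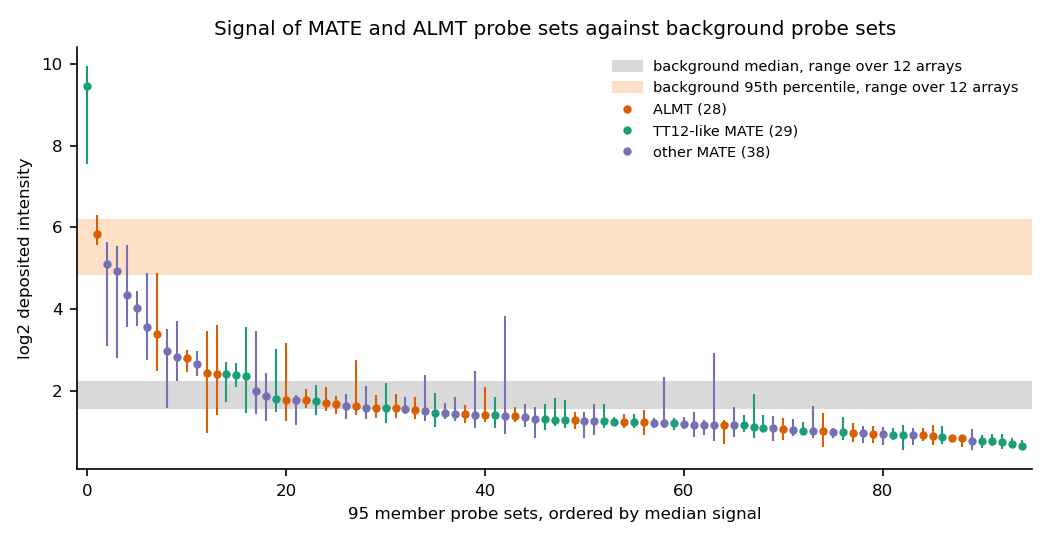
Median log2 intensity over 12 arrays of each of the 95 member probe sets, with vertical lines from the lowest to the highest array and colours for the 3 families. The grey band spans the background medians of the 12 arrays (1.59 to 2.22) and the orange band their 95th percentiles (4.87 to 6.18). Most members lie in or below the grey band.

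The annotation places the members on 20 of 20 chromosomes, and 38 genes sit in 15 clusters in which neighbours are within 100 kb. The largest cluster, on chromosome 9, holds 5 MATE genes. Another, on chromosome 8, pairs LOC100790131 with a LOC100797250 probe set whose transcript is named for chromosome 20. Among the 95 probe sets, 61 carry the MATE domain entry in the array annotation, 26 the ALMT entry and 8 neither. Soybean EST collections in that annotation list a tissue for 27 members, and root is among the tissues of 5. Interpretation of single members is limited by 4 probe sets that the annotation marks for cross-hybridization and by 6 that are assigned to several genes. All positions below are those of the array annotation, on soybean assembly V1.0 transcripts.

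The member with the strongest signal over background was LOC100797729 (GLYMA01G03190, chromosome 1, 2731456 to 2737749), a TT12-like MATE gene and the 1 member above the background 95th percentile on all 12 arrays. In GF its log2 intensity at 6, 12 and 24 h was 9.58, 9.37 and 9.07 in control and 9.75, 8.79 and 8.86 with Al. In KF it was 9.70, 9.72 and 9.66 in control and 9.95, 9.18 and 7.54 with Al. The KF 24 h Al array stood below all the others, and the control and Al ranges overlapped. The mean difference over 6 pairs was -0.51 ± 0.29 (SE, limma adjusted p = 0.272), so no change with Al passed the test for this gene.

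ALMT13 (GLYMA08G29210, chromosome 8, 23630232 to 23635207), titled ALMT4-like, was the only ALMT member above the 95th percentile in at least 6 arrays, and it was above it in 11. Its log2 intensity was 5.71, 5.67 and 6.17 in GF control roots and 5.74, 6.31 and 5.81 with Al at 6, 12 and 24 h. In KF the control values were 6.21, 5.94 and 5.78 and the Al values 5.87, 6.05 and 5.58. All 12 arrays lay within 5.58 to 6.31, and control and Al overlapped. Its mean difference with Al was -0.02 ± 0.17 (SE, n = 6 pairs, limma adjusted p = 0.952). Missing the threshold does not show that the level was equal.

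A pair of adjacent genes on chromosome 11, both titled chloroplastic MATE efflux protein 4-like, had their lowest signal on the same array. EDS5 (GLYMA11G11970, 8539044 to 8544820) lies 3586 bp upstream of LOC100778835 (GLYMA11G11990, 8548406 to 8554286) on the same strand. EDS5 log2 intensity at 6, 12 and 24 h was 5.54, 5.05 and 4.35 in GF control and 4.80, 4.50 and 3.89 in GF with Al. The KF values of EDS5 were 5.20, 5.36 and 5.44 in control and 5.05, 4.50 and 2.81 with Al. Within every pair the Al array was the lower one, and the largest gap was in KF at 24 h.

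For LOC100778835 the GF values were 5.65, 5.28 and 4.22 in control and 5.22, 5.03 and 3.91 with Al. In KF they were 5.11, 5.58 and 5.24 in control and 5.11, 4.64 and 3.10 with Al. As for EDS5, the KF 24 h Al array was the lowest of the 12, and the control and Al ranges overlapped. LOC100778835 was above the background 95th percentile in 6 arrays and EDS5 in 5. The difference between Al and control was -0.90 ± 0.30 for EDS5 (limma adjusted p = 0.0818) and -0.68 ± 0.28 for LOC100778835 (adjusted p = 0.130), so neither passed. At 24 h in KF the difference was -2.63 for EDS5 and -2.14 for LOC100778835, single pairs with no replicate.

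LOC100800364 (GLYMA16G27370, chromosome 16, 31426735 to 31431091), titled MATE efflux protein 9-like, was the only member to pass as higher with Al over both varieties. It was above the background 95th percentile in 2 of 12 arrays and above the background median in all 12. Its log2 intensity in GF was 4.32, 3.57 and 3.84 in control and 5.57, 4.38 and 4.14 with Al at 6, 12 and 24 h. In KF it was 4.56, 4.12 and 4.04 in control and 5.37, 5.02 and 4.56 with Al. Each of the 6 Al arrays was above its own control, by 0.30 to 1.24 log2, although the overall ranges overlapped. The rise was 0.77 ± 0.16 (SE), or 1.70-fold, with a limma adjusted p of 0.0187. The call was lost when the GF pair of 12 h (adjusted p = 0.0502) or the KF pair of 12 h (0.0698) was dropped, and in the fit without blocks (0.062).

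LOC100782284 (GLYMA05G09210, chromosome 5, 8984514 to 8987450), titled MATE efflux protein 8-like, lay between 3.58 and 4.43 log2 on the 12 arrays. Its values were 4.10, 4.09 and 4.04 in GF control, 4.0, 3.58 and 4.43 in GF with Al, 4.18, 4.01 and 4.12 in KF control and 3.95, 3.66 and 3.96 in KF with Al. Control and Al overlapped, the Al array was lower in 5 of 6 pairs, and the mean difference was -0.16 ± 0.15 (limma adjusted p = 0.523). On no array did it pass the background 95th percentile, but on all 12 it was above the background median.

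**Figure D2:**
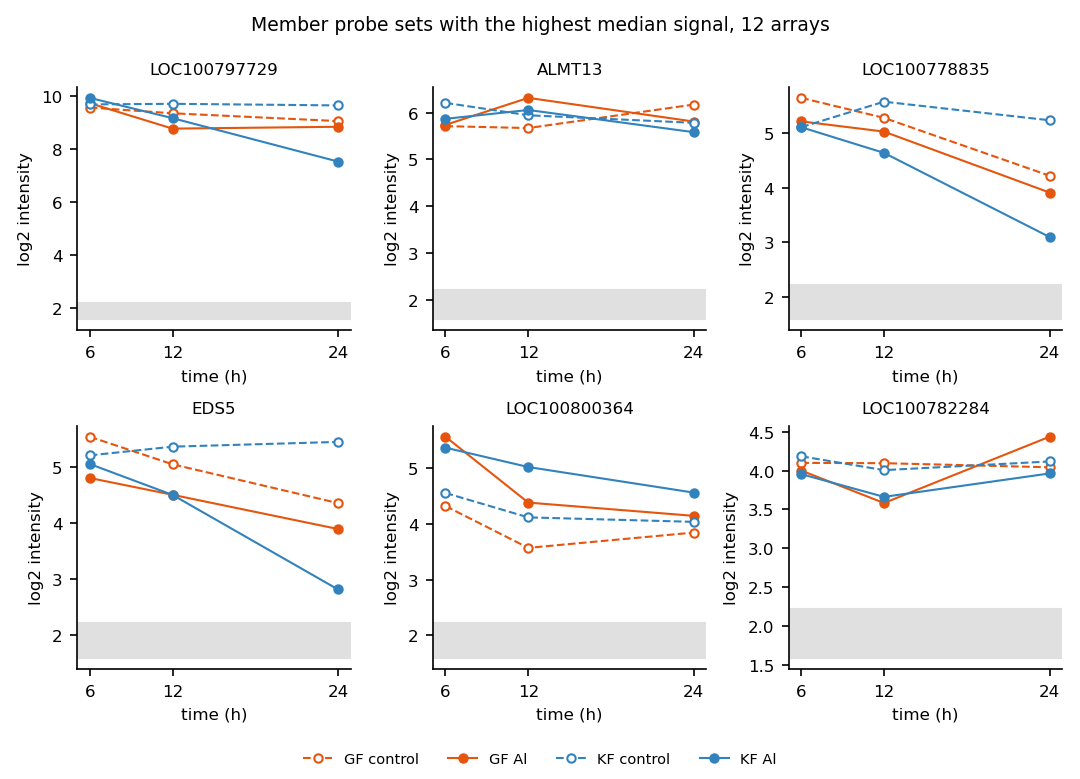
Log2 intensity against time (h) for the 6 member probe sets with the highest median signal, 1 array per point, with dashed lines and open points for control and solid lines for 25 µM AlCl3. The grey band is the range of the background medians. The KF Al series of LOC100797729, LOC100778835 and EDS5 ends lowest at 24 h, and every Al point of LOC100800364 is above its control.

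The question of which transporters changed with Al was tested with limma in 1 fit over all 49646 probe sets that passed the filter, each Al array set against the control of its own variety and time. Over both varieties 6 of 95 members passed at an adjusted p below 0.05, 1 higher and 5 lower. Of all tested probe sets, 15.4% passed, 7.3% higher and 8.11% lower, and the 6 members of the 68 tested are a smaller share than that. The count was 1 when the KF pair of 12 h was dropped and 3 when the GF pair of 12 h or of 24 h was. The median Al effect over all 95 members was -0.04, beside -0.02 over the main probe sets. All 6 pairs had the same sign in 16 of 95 members (16.8%), 6 higher and 10 lower, compared with 20.03% of main probe sets.

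The clearest fall was that of LOC100781278 (GLYMA17G36590, chromosome 17, 40550723 to 40557244), a TT12-like MATE gene. In GF its log2 intensity at 6, 12 and 24 h was 3.37, 3.56 and 2.66 in control and 2.05, 2.38 and 1.61 with Al. In KF it was 2.35, 2.99 and 3.10 in control and 1.46, 1.49 and 1.78 with Al. Within each variety the control and Al arrays did not overlap, and the Al arrays were near or below the background median. The fall was -1.21 ± 0.12 (SE, n = 6 pairs), or 2.32-fold, with an adjusted p of 0.00105. It also passed for the GF effect (-1.18 ± 0.17, limma adjusted p = 0.0332) and for the KF effect (-1.24 ± 0.17, limma adjusted p = 0.0137), each fitted over all 12 arrays. That fit shares its spread between the varieties, and neither call passed with the arrays of 1 variety alone. The probe set of LOC100781278 is one of the 4 marked for cross-hybridization. With values floored at 2.22, the highest background median, the fall was -0.93 in GF and -0.60 in KF.

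LOC100813142 (GLYMA07G11240, chromosome 7, 9443632 to 9447685) is titled DTX1-like, after a MATE protein of Arabidopsis that exports plant alkaloids and other toxic compounds. Its log2 intensity was 3.30, 3.48 and 3.02 in GF control and 3.03, 2.93 and 1.98 in GF with Al at 6, 12 and 24 h. In KF the control values were 3.51, 2.99 and 2.95 and the Al values 1.79, 2.04 and 1.59. The Al array was lower in all 6 pairs, and the KF groups were fully apart while the GF groups overlapped slightly. The fall was -0.98 ± 0.19, or 1.97-fold (limma adjusted p = 0.0164), and the call was lost when the KF pair of 12 h was dropped (adjusted p = 0.057).

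Among the ALMT members, 2 of 28 probe sets (19 tested) passed over both varieties, both titled ALMT12-like and both lower. Other probe sets of that title did not pass. Among them LOC100810525, 4063 bp from LOC100809994, was higher with Al in all 6 pairs, by 0.09 to 0.47, at 1.58 to 2.05 log2. The mean difference was 0.07 for ALMT21 and -0.09 for LOC100796724. ALMT12 of Arabidopsis is a guard cell anion channel that takes part in stomatal closure. LOC100809994 (chromosome 10, from 50083005 to 50086199) gave 2.73, 2.95 and 2.02 in GF control, 2.69, 2.10 and 1.42 in GF with Al, 3.04, 3.61 and 3.51 in KF control and 2.16, 2.03 and 1.47 in KF with Al. The Al array was the lower one in all 6 pairs, with the wider gaps in KF, where the groups did not overlap. Its fall over both varieties was -1.002 ± 0.24, or 2.003-fold (limma adjusted p = 0.0302). No array passed the background 95th percentile, both 24 h Al values were below the background median, and the fall was -0.72 with the floor at 2.22, so the fold is uncertain. Dropping the GF pair of 12 h or 24 h or the KF pair of 6 h or 12 h ended the call (adjusted p 0.0613 to 0.0963).

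The probe set titled LOC100797250 is placed on chromosome 8 (38193480 to 38193693), although its transcript in the same annotation, GLYMA20G23470, is named for chromosome 20. This probe set is marked for cross-hybridization and is assigned to LOC100809994 as well, so it is not independent of the gene just described. Its log2 intensity was 4.39, 2.96 and 3.98 in GF control, 3.69, 3.11 and 3.02 in GF with Al, 4.89, 4.17 and 4.34 in KF control and 2.48, 2.76 and 2.77 in KF with Al. All KF Al arrays were below all KF control arrays, whereas in GF at 12 h the Al array was higher by 0.15. The fall was -1.15 ± 0.30, or 2.22-fold (limma adjusted p = 0.0358), and the call was lost when any 1 pair other than the GF pair of 12 h was dropped. A separate LOC100797250 probe set on chromosome 20 stayed between 0.62 and 1.47 on the 12 arrays, below the background median.

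LOC100789080, a TT12-like MATE gene (GLYMA16G29910, chromosome 16, 33567487 to 33572332), also passed with a small fall of -0.33 ± 0.08 (limma adjusted p = 0.0354). Its control arrays gave 1.27 to 1.68 and its Al arrays 1.05 to 1.5, and on none of the 12 was it above the background median. The difference was 0 with the floor at 2.22, and the call was lost when the GF or KF pair of 12 h or of 24 h was dropped. This floor, added after the data had been seen, reduced the fall of LOC100781278 to -0.76, that of LOC100809994 to -0.72 and that of LOC100813142 to -0.74, and left LOC100800364 and the chromosome 8 probe set as they were.

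**Figure D3:**
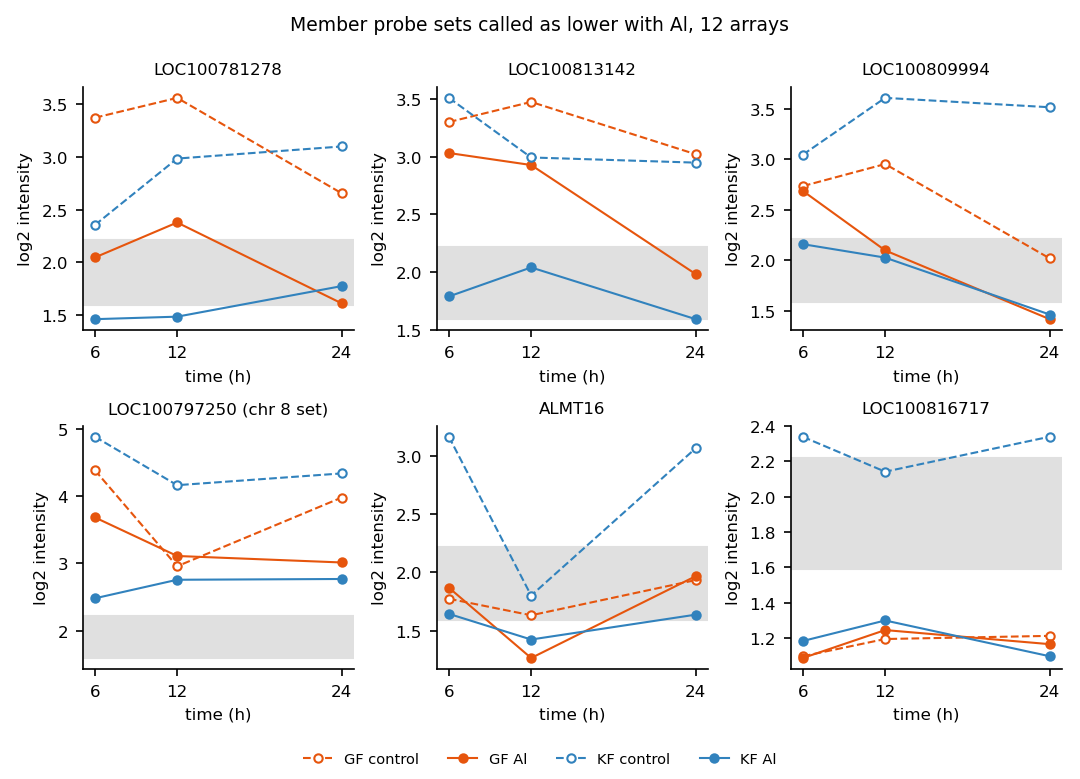
Log2 intensity against time (h) for 6 member probe sets called as lower with Al over both varieties or in KF, 1 array per point, with dashed lines for control and solid lines for 25 µM AlCl3. The grey band is the range of the background medians. KF control lies above KF Al at every time in all 6 panels, and several Al points are within or below the band.

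In GF, 1 of the 68 tested members passed, the fall of LOC100781278 given above, where 0.828% of tested probe sets passed. It was lost when any 1 GF pair or the KF pair of 12 h was dropped. In KF 7 of the 68 tested members passed, 1 higher and 6 lower, beside 5.48% of tested probe sets, 2.78% higher and 2.7% lower. The share of members lower is the larger one, which was not tested. The KF falls were those of LOC100797250 (-1.80 ± 0.29, adjusted p = 0.0217), LOC100809994 (-1.503 ± 0.26, adjusted p = 0.0246), LOC100813142 (-1.34 ± 0.22, adjusted p = 0.0224), LOC100781278, LOC100816717 and ALMT16, all with limma. Of these 7 calls, 3 remained when the GF pair of 12 h was dropped (LOC100781278, LOC100797250 and LOC100816717), 3 when the KF pair of 12 h was (ALMT16, LOC100800053 and LOC100816717), 4 when the KF pair of 6 h was, 2 when the KF pair of 24 h was (LOC100781278 and LOC100816717), and 0 in a fit of the KF arrays alone. The size of the Al effect itself was then compared between varieties. No member passed for this difference (0 of the 68 tested, smallest limma adjusted p = 0.517), and 6 of the 68 (8.82%) were at an unadjusted limma p below 0.05. Of all tested probe sets 0.00403% passed and 4.43% were below an unadjusted 0.05, so the data do not show that any member responded differently in KF.

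LOC100816717 (GLYMA09G41250, chromosome 9, 45940397 to 45941800), a MATE gene, was the only member to pass for a difference between the varieties in control roots. Its log2 intensity in KF control was 2.34, 2.14 and 2.34 at 6, 12 and 24 h. All other arrays lay close together, at 1.10, 1.19 and 1.21 in GF control, 1.09, 1.25 and 1.17 in GF with Al and 1.18, 1.30 and 1.10 in KF with Al. The KF control arrays thus stood apart from the other 9, near the upper edge of the background medians. KF was higher than GF in control by 1.10 ± 0.10 (limma adjusted p = 0.00163), a comparison in which 1.26% of tested probe sets passed. With Al the KF level fell by 1.08 ± 0.11 (SE, adjusted p = 0.00435). With the floor at 2.22 the difference between varieties was 0.08 and that with Al -0.08.

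ALMT16 (GLYMA10G31680, chromosome 10, 40161626 to 40163974), titled ALMT10-like, was chosen for mention after its values were seen. Its KF control values were 3.16, 1.80 and 3.06 and its KF Al values 1.65, 1.43 and 1.64. In GF all values were between 1.27 and 1.97, so only 2 arrays rose clearly over the background medians. The fall in KF was -1.11 ± 0.24 (limma adjusted p = 0.0427), or -0.60 with the floor at 2.22, and it passed in 5 of 17 alternatives, being lost when any 1 pair other than the KF pair of 12 h was dropped. ALMT29, titled ALMT8-like and also picked afterwards, was lower with Al in all 6 pairs, by 0.08 to 1.77 log2, and missed the threshold over both varieties (-0.84 ± 0.26, adjusted p = 0.0609).

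A neighbourhood of 3 MATE genes on chromosome 10 held the member that passed as higher with Al in KF. LOC100816063 (48442461 to 48444922), LOC100800053 (GLYMA10G41370, 48457805 to 48461830) and LOC100817123 (48462475 to 48465559) follow each other, and the last pair is 645 bp apart. LOC100800053 gave 1.51, 1.43 and 1.31 in KF control and 3.84, 1.92 and 2.98 in KF with Al, beside 1.18, 0.95 and 1.31 in GF control and 1.33, 1.32 and 1.85 in GF with Al. Its 2 highest arrays were KF with Al at 6 and 24 h. The KF rise was 1.498 ± 0.31 (limma adjusted p = 0.0382), and with Al KF was above GF by 1.41 ± 0.30 (limma adjusted p = 0.0484). LOC100800053 was the 1 member of the 68 tested to pass there, where 2.25% of tested probe sets did. With the floor at 2.22 both differences were 0.80. The KF call passed in 6 of 17 alternatives (adjusted p up to 0.148) and was lost when any 1 pair other than the KF pair of 12 h was dropped. The call between varieties passed in 5 of 12 alternatives and was lost when the Al pair of 6 h or any control pair was dropped.

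The other neighbours, named after their values were seen, did not pass. LOC100816063 reached 2.92 in KF with Al at 24 h and stayed between 0.76 and 1.49 on the other 11 arrays. LOC100817123 reached 3.47 in KF with Al at 6 h and stayed between 1.44 and 2.49 elsewhere. The KF effect was 0.92 ± 0.25 for LOC100816063 (limma adjusted p = 0.0745) and 0.58 ± 0.38 for LOC100817123 (adjusted p = 0.382). The highest array of each was thus a KF Al array, at different times.

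**Figure D4:**
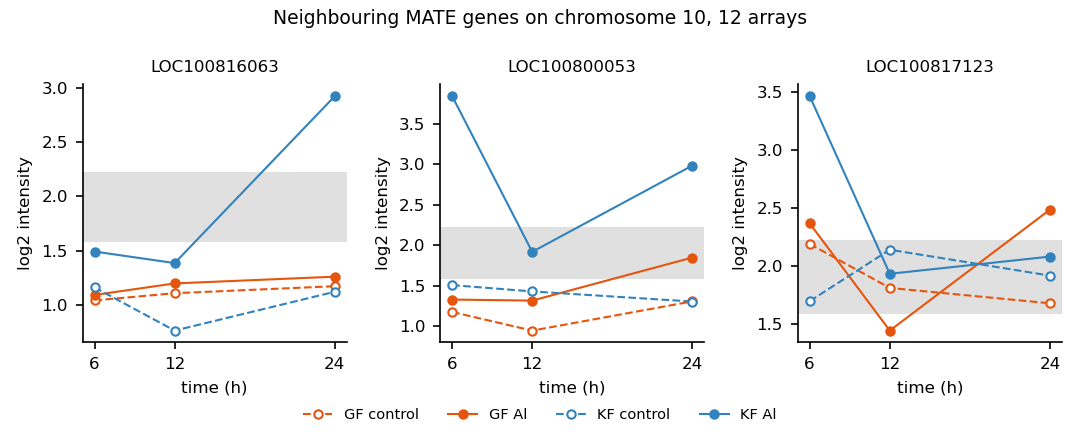
Log2 intensity against time (h) for 3 neighbouring MATE genes of chromosome 10, 1 array per point, with dashed lines for control, solid lines for 25 µM AlCl3 and a grey band for the range of the background medians. The points clearly above the band are KF Al arrays, except for LOC100817123 in GF with Al at 6 and 24 h.

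Single pairs of arrays were compared by size alone, since they have no replicate. At 6 h, 2 of 95 members differed at least 2-fold between Al and control in GF, against 3.99% of main probe sets, and 6 in KF, against 4.55%. At 12 h the counts were 1 in GF, against 5.58%, and 4 in KF, against 8.74%, all 5 lower. At 24 h they were 5 in GF, against 10.7%, and 14 in KF, against 19.1%. The 14 KF members at 24 h, of which 10 were lower and 4 higher, are 14.7% of the family, a smaller share than among all main probe sets.

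**Figure D5:**
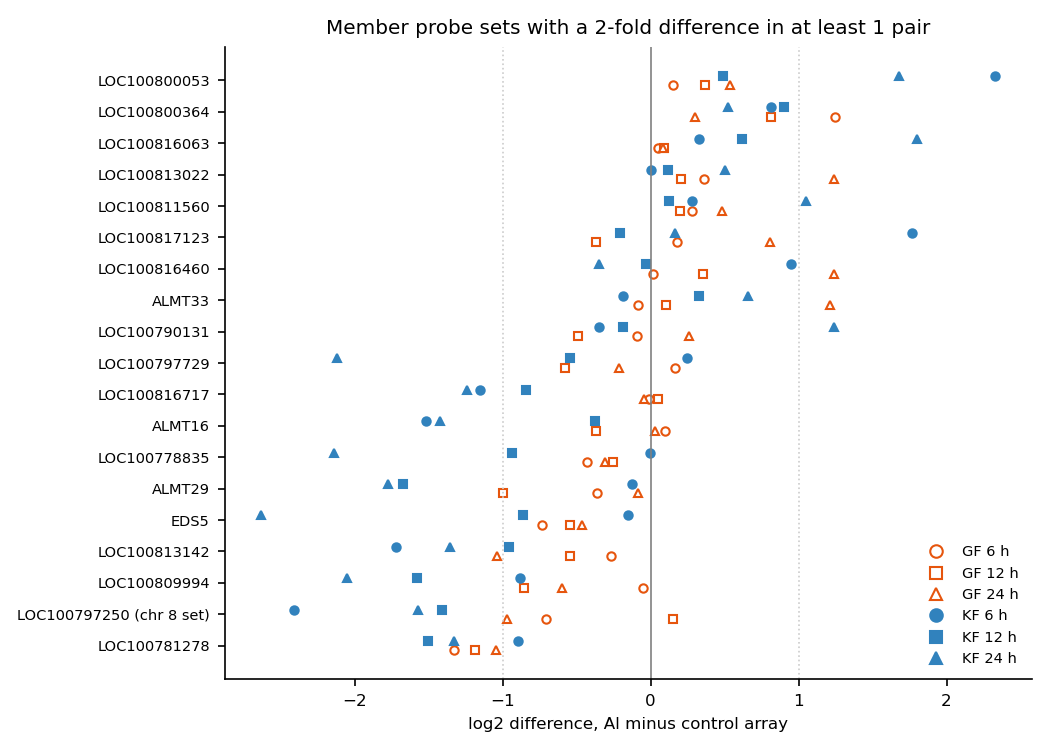
Log2 difference between the Al and the control array of the same variety and time for each member probe set that differed at least 2-fold in any pair, with open orange symbols for GF, filled blue symbols for KF and a shape for each time. Dotted lines mark 2-fold. The widest falls are KF points, reaching -2.63 for EDS5 at 24 h.

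From 6 to 24 h, with times compared within each variety and treatment, 0 of the 68 tested members passed, beside 0.00403% of tested probe sets. At an unadjusted limma p below 0.05 there were 18 of the 68 (26.5%), beside 32.2% of tested probe sets. The smallest limma adjusted p was 0.0536, for ALMT29, which was lower at 24 h by a difference of -1.41 ± 0.27.

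Genes that make, use or carry the anions moved by these transporters were counted in the same fit over both varieties, in which 15.4% of tested probe sets passed. Of 40 probe sets titled as organic acid synthesis enzymes, 37 of them tested, 1 rose and 4 fell (median -0.22). The rise was a cytoplasmic aconitase (LOC100794803, 0.52 ± 0.15, limma adjusted p = 0.0499), an enzyme that converts citrate to isocitrate. The falls were another aconitase, a chloroplastic malate dehydrogenase (LOC100783173, -0.77 ± 0.18, limma adjusted p = 0.0274) and a pair titled 3-isopropylmalate dehydrogenase, which belongs to leucine synthesis. That pair entered the list only through the wording of its title. LOC100794803 was above the background 95th percentile in 10 arrays and LOC100783173 in 0. Of 22 probe sets for malate and citrate consumption, 20 of them tested, 2 malic enzymes rose, among them LOC100800844 (1.27 ± 0.19, adjusted p = 0.00601), and 3 ATP-citrate synthase subunits, which split citrate for acetyl-CoA, fell. Malic enzymes turn malate into pyruvate. LOC100800844 was above the background 95th percentile in 9 arrays and the other malic enzyme, LOC100801564, in 2. The 3 ATP-citrate synthase probe sets were above it in 0.

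Plasma membrane proton pumps, which energize anion release, had 2 of 11 probe sets (10 tested) higher and none lower, led by LOC100816905 (1.16 ± 0.18, limma adjusted p = 0.00689). LOC100816905 was above the background 95th percentile in 6 arrays and the other, LOC100785442, in 0. Of 6 probe sets titled after other Al tolerance genes, all 6 tested, 3 rose and 0 fell (median 0.77). They were ALS3-like LOC100802735 (1.26 ± 0.27, adjusted p = 0.0212), whose Arabidopsis relative is part of an Al-tolerance transporter, and STOP1-like LOC100804910 (1.52 ± 0.31, adjusted p = 0.0174) and LOC100801536 (0.999 ± 0.13, adjusted p = 0.00421). LOC100802735 was above the background 95th percentile in 12 arrays, LOC100804910 in 4 and LOC100801536 in 0. STOP1 of Arabidopsis is the transcription factor that induces its ALMT1 and MATE genes in acid and Al.

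Of 12 other vacuolar and anion carriers, 9 of them tested, 3 rose and 1 fell. The S-type anion channel SLAH1-like LOC100787036 rose by 1.64 ± 0.31 (limma adjusted p = 0.0141). Tonoplast dicarboxylate transporters, which move malate into the vacuole, went both ways, with LOC100808680 at 1.20 ± 0.26 (limma adjusted p = 0.0221) and LOC100802110 at -1.57 ± 0.34 (adjusted p = 0.0211). LOC100787036 was above the background 95th percentile in 1 of 12 arrays, LOC100808680 in 0 and LOC100802110 in 5. Of 129 probe sets for flavonoid synthesis, whose products are possible cargo of TT12-type proteins, 100 were tested, 13 rose and 9 fell. Chalcone synthases, the entry enzymes of the pathway, were among the rises, with CHS9 at 3.44 ± 0.34 (adjusted p = 0.00117), while chalcone isomerase CHI1B2 was among the falls (-1.96 ± 0.45, adjusted p = 0.0255). CHS9 was above the background 95th percentile in 5 arrays and CHI1B2 in 11.

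For the GF effect, fitted over all 12 arrays, 0.828% of tested probe sets passed. The flavonoid list had 2 rises and no fall, and the other 5 lists had no call in either direction. For the KF effect from the same fit 5.48% passed, and rises and falls were counted in each list. They were 0 and 1 for organic acid synthesis, and 1 and 0 each for malate and citrate consumption, proton pumps and the other Al tolerance genes. They were 0 and 0 for the other carriers and 6 and 1 for flavonoid synthesis. The 1 fall in the organic acid synthesis list was LOC100807689, titled 3-isopropylmalate dehydrogenase, so it belongs to leucine synthesis. One further probe set, titled aluminum-activated citrate transporter, fell outside the wording that chose the members. It is assigned to several genes and stayed at 0.74 to 1.26 log2 on the 12 arrays, below the background median.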

How the data were processed

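Root total RNA (0.1 µg) of 12 samples was biotin-labelled and hybridised, per the labels' protocols. The deposited series table holds linear intensity values, already normalized by the authors. No source consulted names the normalization. The log2 of these deposited values was taken without a pseudocount. A second deposited table gave the annotation only: its 24 columns of per-sample values match no label and were not used. RefSeq gene records matched 89 of 95 members, of which 22 took ALMT symbols.

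Probe sets under the 0.25 quantile of mean log2 (1.12) were left out, and limma 3.58.1 in R 4.3.3 was fitted to the other 49646, with Benjamini-Hochberg adjustment over all of them and a threshold of 0.05. The fit over both varieties used the 6 pairs of equal variety and time, with 5 residual degrees of freedom. The procedure was tested on simulated data. Named members were those called with the same sign in 6 of 6 pairs, the 4 largest calls per direction in the other comparisons, ALMT members above background in at least 6 arrays and the 6 with the highest median. Members, gene lists and tests were chosen with earlier results of these data known. Alternatives are given in the closing section. No sequence was used here.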

Additional observations from a re-analysis of the deposited data

How the results depend on the processing

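Each condition is 1 array, so the error is the spread over times and varieties, and members near the background median rest on small intensities. With time as an additive term, 13 instead of 6 members passed over both varieties. In GF the single call became 0 without blocks, with additive time, with a pseudocount of 4 and with the GF arrays alone. In KF the 7 calls became 0 with the KF arrays alone. The call between varieties in control became 0 with the filter at the 0.5 quantile, and that in Al became 0 without blocks, with the pseudocount of 4 and without the variance trend. From 6 to 24 h, 1 member passed with that filter and 1 without the trend.

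Leaving out arrays gave 1 to 6 members over both varieties, 0 to 1 in GF, 0 to 7 in KF, 0 to 0 for the difference between varieties in the Al effect, 1 to 1 between varieties in control, 0 to 2 in Al and 0 to 0 from 6 to 24 h. Over both varieties 1 member passed when the KF pair of 12 h was dropped, 1 when all 12 h arrays were, and 3 when the GF pair of 12 h or 24 h was. In GF 0 passed with any 1 GF pair, the KF pair of 12 h, all 6 h arrays or all 12 h arrays dropped. In KF 3 passed with either 12 h pair dropped, 2 with the KF pair of 24 h or all 6 h arrays dropped, and 0 with all 12 h arrays dropped. Between varieties in Al 0 passed after dropping a control pair of any time or the Al pair of 6 h, and 2 after dropping the Al pair of 24 h. For the 16 calls of single members, 162 of 253 alternatives kept the call, 91 did not, and 0 changed direction. The fall of LOC100781278 over both varieties passed in all 16 alternatives run (-1.28 to -0.69, limma adjusted p 0.000763 to 0.0378), and LOC100816717 in control in the 11 that tested it (the filter at the 0.5 quantile removed its probe set).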
